A study of Rattus norvegicus with 6 samples.

Results

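Hepcidin, encoded by Hamp, was followed together with the BMP signalling and iron-handling genes around it in livers of fibrotic rats. The set holds 10 genes, Hamp, Bmp6, Bmp2, Id1, Smad6, Tfr2, Tfrc, Slc40a1, Tmprss6 and Hfe, out of 16209 rows in the expression table, and all 10 were found by symbol and passed the filter on low values. The genes were selected by name, with the ginkgetin against vehicle contrast of these libraries already known, so their differences between the groups are given as a description with no test. Bulk RNA sequencing covered 6 liver samples of rats with liver fibrosis, 3 on vehicle and 3 on ginkgetin (10 mg/kg/day), a biflavonoid from ginkgo. All 6 samples were therefore fibrotic, and no library of a healthy liver is part of the comparison. The sources used here do not state how fibrosis was induced, nor the strain, sex or age of the rats. The vehicle group was read from 3 table columns that carry a name absent from the labels, as set out under the processing, and every direction below rests on that assignment.

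Hepcidin is a peptide hormone that hepatocytes secrete and that binds the iron exporter ferroportin, the product of Slc40a1, so that the exporter is degraded and less iron enters the plasma. Its transcription in hepatocytes is driven by BMP ligands, chiefly BMP6 and BMP2 from sinusoidal endothelial cells, through SMAD proteins that also act on Id1 and Smad6, and separately by IL-6 through STAT3. Holo-transferrin adds to the BMP signal through HFE and transferrin receptor 2, and the protease matriptase-2, encoded by Tmprss6, restrains it. The question here is whether Hamp moved together with Id1 and Smad6 or without them.

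The promoter of Hamp is shown because both inputs have recognition letters in it, and that of Id1 because it is the BMP target set against Hamp below. Each line gives the 250 bases upstream of the RefSeq gene start in the GRCr8 assembly, chr1:95300272-95300521 on the minus strand for Hamp and chr3:161671314-161671563 on the plus strand for Id1. Capitals mark GGCGCC, the core of the BMP-responsive element known from hepcidin promoters, and TTCNNNGAA, the STAT consensus. Both motifs read the same on either strand, do not overlap each other, and were searched as letters alone.
Hamp: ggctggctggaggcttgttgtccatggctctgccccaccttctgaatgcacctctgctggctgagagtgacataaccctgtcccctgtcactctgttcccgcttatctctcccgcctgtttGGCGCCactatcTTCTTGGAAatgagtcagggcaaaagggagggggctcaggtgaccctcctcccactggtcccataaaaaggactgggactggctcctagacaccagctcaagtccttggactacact
Id1: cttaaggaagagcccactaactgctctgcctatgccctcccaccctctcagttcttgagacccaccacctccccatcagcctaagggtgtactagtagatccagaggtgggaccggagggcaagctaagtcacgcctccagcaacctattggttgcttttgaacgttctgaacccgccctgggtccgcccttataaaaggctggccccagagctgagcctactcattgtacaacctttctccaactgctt
In the Hamp window GGCGCC lay 129 to 124 bases upstream of the start and TTCTTGGAA lay 117 to 109 bases upstream. The first motif was present in 8.69% of 33469 RefSeq rat promoters of this length, the second in 7.67%, and the pair within 30 bases of each other in 0.0627%. Promoter entries were at hand for 6 of the 10 genes (Hamp, Id1, Slc40a1, Tfrc, Tfr2 and Bmp6). Tfrc held 1 GGCGCC, at 118 to 113 bases upstream, and the windows of Id1, Slc40a1, Tfr2 and Bmp6 held neither motif. A match describes the letters and does not show binding. Letters farther than 250 bases upstream were not searched, so a missing motif, as for Id1, holds for this window only.

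Each library held between 13372367 and 14933853 reads on genes. The deposited scaling was less even: normalized values summed to 15863575, 11768875 and 8265117 in vehicle libraries 1 to 3 and to between 16250451 and 16991873 with ginkgetin. In these units 1 read counted as 1.19, 0.83 and 0.61 in vehicle libraries 1 to 3 and as 1.11 to 1.24 with ginkgetin. Vehicle library 3 stood apart from the others. The mean log2 level of 13 hepatocyte markers was 15.32, 14.75 and 12.85 in vehicle libraries 1 to 3 and 15.26, 15.53 and 15.72 in the ginkgetin libraries. The mean of 13 sinusoidal endothelial markers was 8.73, 7.93 and 7.91 against 8.86, 8.82 and 8.48. None of the markers found was at 0 in all 6 libraries, and the hepatocyte markers had the high levels of a liver sample. In whole tissue, fewer cells of a type and less RNA per cell cannot be told apart.

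Hamp was higher in every ginkgetin library than in any vehicle library. It stood at 1777, 2030 and 1045 normalized counts under vehicle, against 17395, 15694 and 6767 with ginkgetin. The lowest ginkgetin library, library 3, was still above the highest vehicle library, library 2. Group means were 1618 ± 511 (SD, n = 3) and 13285 ± 5709 (SD, n = 3), an 8.21-fold ratio. On the scale of log2(value + 1) the difference was 2.98 (SE 0.489), and it ran from 2.69 to 3.41 when any 1 library was left out. Hamp ranked at 57 of 14639 tested genes by this difference. Its depth was ample, at 1498 to 15734 reads per library.

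The 10 genes did not move as a block: 5 had higher and 5 lower means with ginkgetin. Values of the 2 groups did not overlap for 3 genes, beside 27.4% of all tested genes in either direction. The 3 were all higher (Hamp, Tfr2 and Tmprss6), where 11.4% of all tested genes were higher in this way and 16.1% lower. Leaving out vehicle library 3 kept the same 3 and added Tfrc as lower, against 14.5% and 19.3% of all genes. In limma 0 of the 10 passed an adjusted p of 0.05, beside 0.0137% of all tested genes. An unadjusted p under 0.05 was found for 1 of the 10, beside 20.2% of all genes. On whole reads edgeR called 0 of the 10 (0% of all genes) and had 2 at an unadjusted p under 0.05, as 19.8% of all genes did. DESeq2 called 1 of the 10, against 9.85% of all genes, and had 3 at an unadjusted p under 0.05, beside 22.7% of all genes. These counts come from the contrast that was known when the genes were chosen, and nothing is read from them.

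**Figure D1:**
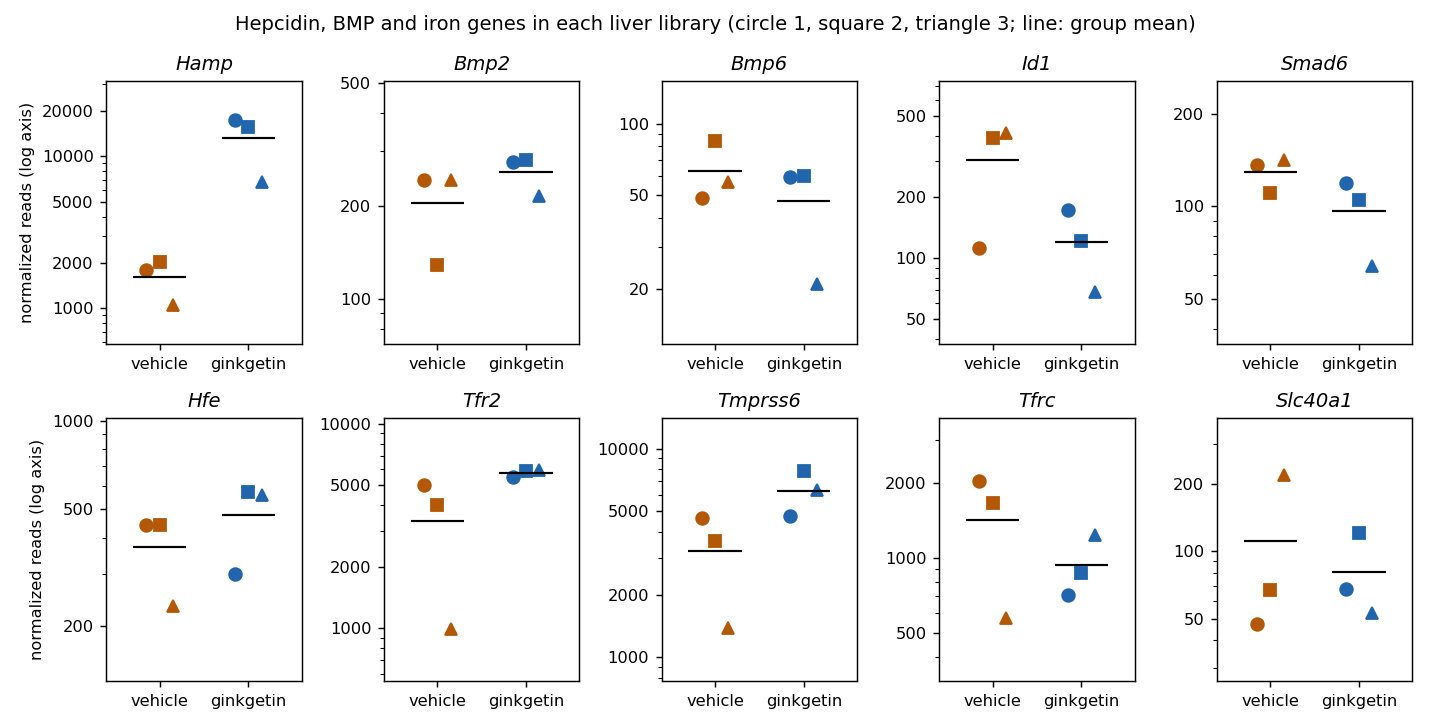
Normalized reads (log axis) of the 10 genes in each library, vehicle in orange and ginkgetin in blue, with symbols for library number and a line at the group mean. Hamp lies between 1045 and 2030 with vehicle and between 6767 and 17395 with ginkgetin, while the groups of Id1, Smad6, Bmp2, Bmp6, Hfe, Tfrc and Slc40a1 overlap.

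Bmp2 and Bmp6, the chief BMP ligands for hepcidin, each overlapped between the groups. Other ligands of the family, some of them without overlap, are given further below. Bmp2, made mainly by sinusoidal endothelium, had 243, 129 and 243 normalized counts under vehicle, against 276, 281 and 215 with ginkgetin. The log2 difference was 0.38 (SE 0.310), and without vehicle library 2, the low one, it was 0.073. With library totals made equal its sign turned, at -0.14. Bmp6, the ligand whose level follows liver iron, had 48.6, 84.0 and 56.5 against 59.7, 60.2 and 21.0 normalized reads. Ginkgetin library 3 was the lowest of the 6 and accounted for most of the log2 difference of -0.52 (SE 0.509), which was -0.033 without it. Counts were low for Bmp6, at 17 to 101 reads per library.

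Both ligands were also set against the endothelial markers of the same library. These 13 markers did not move together. Means were higher in 10, up to 1.96 for Clec4g, and lower in 3, down to -0.82 for Cdh5 (log2 fold change). Values relative to their mean therefore depend on the markers chosen. Bmp2 lay at -0.80, -0.91 and 0.024 log2 units from the endothelial mean with vehicle and at -0.74, -0.68 and -0.72 with ginkgetin, a difference of -0.15. Leaving out vehicle library 3 turned it to 0.14. For Bmp6 the values were -3.09, -1.52 and -2.06 against -2.94, -2.88 and -4.02, a difference of -1.05 with overlapping groups, and -0.68 without ginkgetin library 3.

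Id1, a helix-loop-helix inhibitor that BMP signals induce at once through SMADs, had 113, 391 and 412 normalized counts under vehicle, against 172, 121 and 68.0 with ginkgetin. Vehicle library 1 lay among the ginkgetin libraries and the other two vehicle libraries above them all. The log2 difference was -1.22 (SE 0.554), from -1.82 without vehicle library 1 to -0.86 without ginkgetin library 3. Smad6, the inhibitory SMAD that the same signal induces as feedback, had 136, 111 and 142 against 119, 105 and 64.3 normalized reads. Its groups overlapped, and the log2 difference of -0.46 (SE 0.334) was -0.20 without ginkgetin library 3. Relative to the endothelial markers, Smad6 lay at -1.62, -1.13 and -0.75 under vehicle, against -1.95, -2.09 and -2.45 with ginkgetin. On that scale it was lower without overlap by 0.99 between means, as 20.7% of all genes were, while Id1 overlapped at a difference of -1.74.

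The mean of Hamp was higher with ginkgetin while those of Id1 and Smad6 were lower. Within each library, log2 Hamp exceeded log2 Id1 by 3.97, 2.37 and 1.34 in the vehicle group, and in the ginkgetin group by 6.65, 7.0 and 6.62. The gap differed between groups by 4.19, and by 3.58 to 4.90 with any 1 library left out. Against Smad6 the gap was 3.69, 4.19 and 2.87 under vehicle, against 7.18, 7.21 and 6.70 under ginkgetin, a difference of 3.44 (3.09 to 3.74 with 1 library left out). The 3 ginkgetin libraries were close together in the gap to the mean of both targets, at 6.89 ± 0.23 (SD, n = 3), against 3.07 ± 0.88 (SD, n = 3) with vehicle. Of all tested genes, 18% were also higher without overlap when set against the same mean, whose own group mean was lower with ginkgetin. Within the ginkgetin group library 1 was the highest and library 3 the lowest for Hamp, Id1 and Smad6 alike. The vehicle group did not share this order: its library 3 was the lowest for Hamp (1045) and the highest for Id1 (412) and Smad6 (142).

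**Figure D2:**
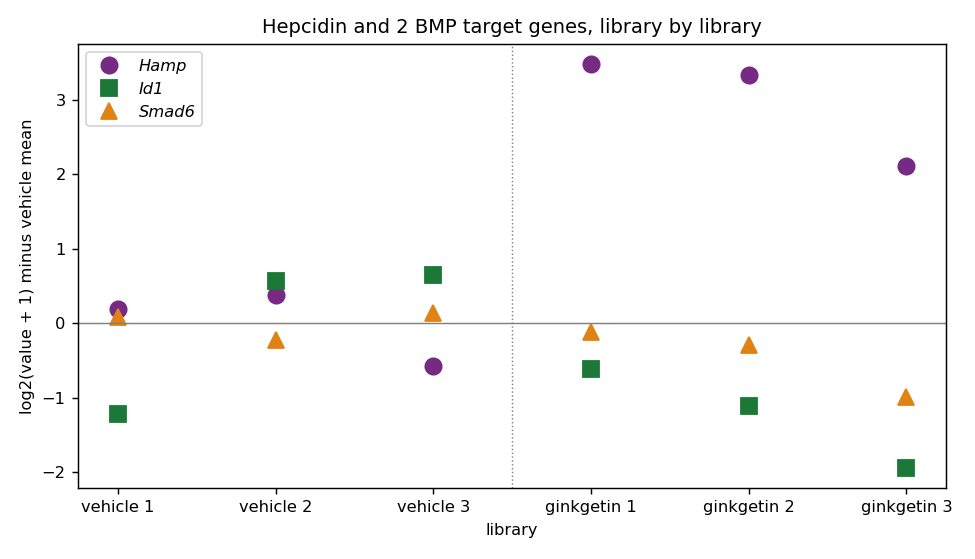
Levels of Hamp (circles), Id1 (squares) and Smad6 (triangles) in each library as log2(value + 1) minus the vehicle mean of that gene. With ginkgetin Hamp is above its vehicle mean in all 3 libraries while Id1 and Smad6 are below theirs in all 3, and Id1 of vehicle library 1 is as low as in the ginkgetin libraries.

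The other BMP-induced genes went in both directions. Of 8 tested BMP targets, Id1 and Smad6 included, 4 had higher and 4 lower means, at a median log2 fold change of -0.057, beside -0.022 over all 14639 genes. None passed in limma over all genes, and 2 had an unadjusted p under 0.05, as 20.2% of all genes did. Id4, a relative of Id1, had 969, 664 and 364 normalized counts under vehicle, against 1784, 1333 and 1043 with ginkgetin, without overlap (1.13 on the log2 scale, SE 0.387, adjusted p = 0.174 in limma). Bambi, a decoy receptor that BMP and TGF-beta signals induce, had 152, 166 and 184 against 76.3, 86.8 and 68.0, also without overlap (-1.11, SE 0.276, adjusted p = 0.109). Atoh8, a transcription factor that follows BMP signals in hepatocytes, had 1308, 1334 and 263 against 2415, 1120 and 1236. Its log2 fold change of 0.95 (SE 0.633) was 0.18 without vehicle library 3. Id3 had 662, 1131 and 2126 against 975, 647 and 494 (-0.78, SE 0.445), and -0.35 without that library. Most stellate and mesenchymal markers moved alongside: their summed level was 11273, 13150 and 124185 normalized counts under vehicle, against 3414 to 6691 with ginkgetin, and 7 of 9 had lower means. The collagens Col1a1 and Col3a1 made up most of each sum. Lrat and Reln had higher means (0.92 and 0.48), and without vehicle library 3 so did Acta2 and Lum (0.83 and 1.27). Markers of cholangiocytes, the cells of bile ducts, summed to 2049, 2443 and 21056 against 319 to 784, with lower means in 8 of 8. In vehicle library 3 Spp1 alone stood at 18034. The part of either cell type in the values of Id1 and Id3 was not tested.

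Hfe, Tfr2 and the co-receptor hemojuvelin form the complex through which hepatocytes sense transferrin-bound iron. Tfr2 had 5041, 3990 and 995 normalized counts under vehicle, against 5469, 5874 and 5956 with ginkgetin. The groups did not overlap, but vehicle library 1 was close to the ginkgetin libraries, and the log2 difference of 1.09 (SE 0.602) was 0.36 without vehicle library 3. Hfe had 441, 443 and 233 against 300, 570 and 558 normalized reads, with overlap, at 0.35 (SE 0.356). Without vehicle library 3 Hfe was at 0.047, and with equal library totals its sign turned, at -0.17. Hemojuvelin, listed under its older symbol Hfe2, had 1187, 1055 and 297 against 1834, 1265 and 1818 (1.17, SE 0.512, limma adjusted p = 0.248), and 0.53 without vehicle library 3.

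Tmprss6, which cleaves hemojuvelin and so lowers hepcidin, was on the same side as Hamp. It had 4643, 3625 and 1387 normalized counts under vehicle, against 4750, 7820 and 6309 with ginkgetin. Ginkgetin library 1 exceeded vehicle library 1 by little, and the log2 difference of 1.11 (SE 0.513) was 0.59 without vehicle library 3. Its level kept pace with Tfr2: the gap between the pair was 0.074 ± 0.35 with vehicle and 0.097 ± 0.31 with ginkgetin (SD, n = 3 each, log2).

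Tfrc, the receptor that takes up transferrin-bound iron and whose mRNA is stabilized when cells lack iron, had 2042, 1662 and 576 normalized counts under vehicle, against 712, 870 and 1243 with ginkgetin. Vehicle libraries 1 and 2 were above all ginkgetin libraries and vehicle library 3 was below them. The log2 difference was -0.45 (SE 0.479), and -1.01 without vehicle library 3. Set against Tfr2 of the same library, Tfrc lay at -1.30, -1.26 and -0.79 with vehicle and at -2.94, -2.75 and -2.26 with ginkgetin, lower in each ginkgetin library than in any vehicle library, at a difference of -1.53 between means. Of all tested genes, 33.6% were lower without overlap on this scale, which was not a planned one. Proliferation markers, which go with Tfrc in dividing cells, had lower means in 8 of 8 genes, at summed levels of 788, 2021 and 3794 with vehicle and 479 to 793 with ginkgetin, and their part in the Tfrc values was not tested.

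Slc40a1, which encodes ferroportin and is abundant in iron-recycling macrophages, had 47.5, 67.4 and 219 normalized counts under vehicle, against 67.4, 120 and 53.2 with ginkgetin. Only vehicle library 3 stood out. The log2 difference of -0.23 (SE 0.598) turned to 0.41 without that library, to 0.019 without ginkgetin library 3 and to 0.058 with quantile scaling. Macrophage and Kupffer markers summed to 11144, 6414 and 18692 with vehicle and to 8095 to 14436 with ginkgetin, highest in the same vehicle library, with 6 of 12 higher and 6 lower.

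Because Hamp, Tfr2, Tmprss6 and hemojuvelin are hepatocyte products, each gene was also expressed relative to the mean of the 13 hepatocyte markers of its library. Tfr2 then lay at -2.90 ± 0.12 with vehicle and -3.01 ± 0.17 with ginkgetin (SD, n = 3 each), a difference of -0.11. The differences were -0.088 for Tmprss6 and -0.031 for hemojuvelin, so that the group differences of these 3 genes were close to that of the hepatocyte markers. Within groups they did not all keep to the markers: hemojuvelin minus the marker mean ran from -5.22 to -4.42 over the ginkgetin libraries. Hamp kept a higher mean, at -4.52, -3.76 and -2.82 with vehicle and -1.17, -1.59 and -2.99 with ginkgetin. Here the groups overlapped, since ginkgetin library 3 lay just below vehicle library 3. The difference was 1.78, from 1.37 without vehicle library 1 to 2.32 without ginkgetin library 3. Without vehicle library 3 it was 2.22 and the groups did not overlap, which held for 3.2% of all genes in that direction. Set against Tfr2 instead, a single gene of the same cells, Hamp lay at -1.50, -0.97 and 0.071 under vehicle, against 1.67, 1.42 and 0.18 with ginkgetin. The groups then stood apart by a small margin, as 0.909% of all genes did on that side, and the difference was 1.89 (1.54 to 2.35 with single libraries left out). Tfr2 was not a planned reference and is itself among the 10 genes chosen with the contrast known, so nothing is read from this separation.

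The other 9 genes had negative differences on this scale, and the median over all tested genes was -1.22. None of the 10 was higher without overlap, as 0.827% of all genes were, and 2, Tfrc and Smad6, were lower without overlap, as 29.6% of all genes were. Without vehicle library 3 the counts were 1 higher, Hamp, and 2 lower, beside 29.9% of all genes lower. Tfrc lay at -4.32, -4.05 and -3.68 with vehicle and at -5.78, -5.76 and -5.44 with ginkgetin, a difference of -1.64 that ranged from -1.80 to -1.48 with 1 library left out. Smad6 lay at -8.21, -7.94 and -5.69 against -8.35, -8.80 and -9.69, at -1.66, and at -0.86 without vehicle library 3.

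**Figure D3:**
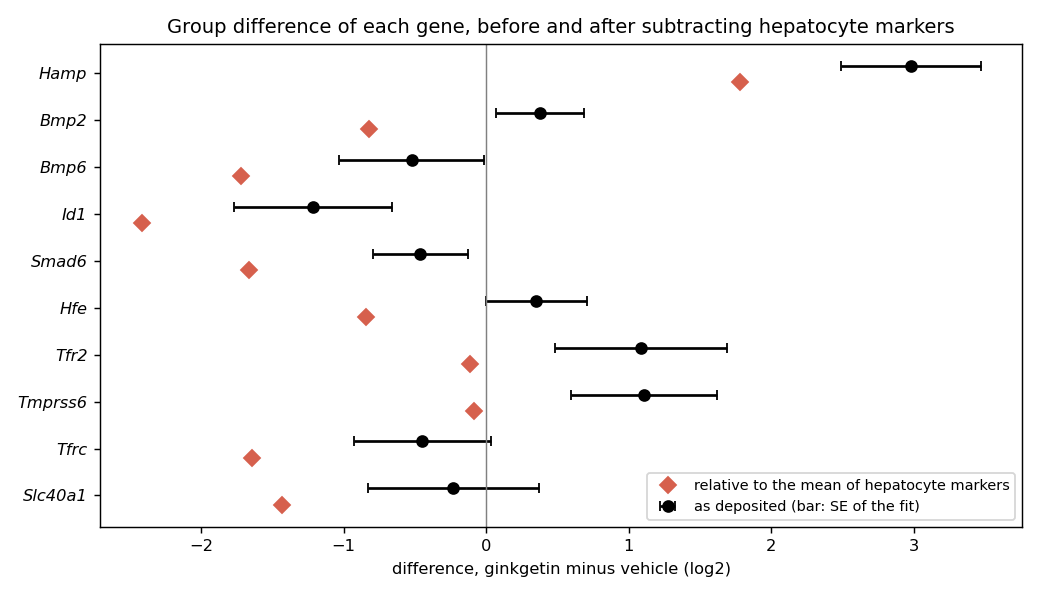
Difference between ginkgetin and vehicle for each gene in log2 units, as deposited (black circles, bars show the SE of the fit) and after subtracting the mean of 13 hepatocyte markers in each library (red diamonds, no error bar). Tfr2 and Tmprss6 go from 1.09 and 1.11 to -0.11 and -0.088, and Hamp goes from 2.98 to 1.78.

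Some of the other BMP family ligands stood apart between groups. Of 9 BMP and activin ligands, 2 were higher and 3 lower without overlap, beside 11.4% and 16.1% of all genes, and the median was -0.50. In limma 0 passed over all genes and 5 had an unadjusted p under 0.05, as 20.2% of all genes did. Bmp7 overlapped, at -0.50 (SE 0.439). Gdf2, which encodes BMP9, a circulating ligand made in the liver, had 209, 104 and 60.1 normalized counts under vehicle, against 240, 733 and 361 under ginkgetin (log2 difference 1.86, SE 0.533, limma adjusted p = 0.134). Bmp10, its close relative, had 4.75, 9.98 and 7.37 against 16.6, 53.2 and 19.8 (1.74, SE 0.631). Bmp4 was on the other side, with 122, 135 and 51.6 against 23.2, 16.2 and 6.18 (-2.73, SE 0.607, adjusted p = 0.0953), and Bmp5 had 234, 183 and 451 against 136, 176 and 141 (-0.83, SE 0.356), at -0.46 without vehicle library 3. Inhbb, the subunit of activin B, had 30.8, 47.4 and 120 against 1.11, 0 and 2.47 normalized reads. Pooled by group, 279 reads under vehicle stood against 3 under ginkgetin, a scaled ratio of 65.2 (exact 95% counting interval 22.1 to 318, which covers counting error only).

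Receptors differed in both directions, and the SMAD transducers overlapped between groups. Of 13 tested receptors and co-receptors, Tfr2 and Hfe included, 7 had higher and 6 lower means, at a median of 0.35. Without overlap 4 were higher and 0 lower (11.4% and 16.1% of all genes). In limma 0 passed the adjusted threshold and 3 had an unadjusted p under 0.05, as 20.2% of all genes did. The 4 were Tfr2, hemojuvelin, Neo1 (0.72, SE 0.262), which encodes the hemojuvelin partner neogenin, and Acvr2a (0.63, SE 0.262), a type II receptor. Acvrl1, the endothelial receptor for BMP9 and BMP10, had 173, 271 and 637 against 192, 114 and 68.0 normalized reads (-1.43, SE 0.536), and -0.91 without vehicle library 3. Smad1, Smad5 and Smad4 lay at -0.25 (SE 0.199), 0.16 (SE 0.265) and 0.039 (SE 0.335), with 0 at an unadjusted p under 0.05. The endothelial markers, 10 of 13 of them with higher means, summed to 3774 to 6523 normalized counts under vehicle, against 5515 to 7088 with ginkgetin.

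Antagonists of BMP and activin signals mostly had lower means. Of 15 tested antagonists and suppressors, Tmprss6 included, 12 had lower means (13 with equal library totals, 10 with quantile scaling), at a median of -0.40. Without overlap 3 were lower and 1, Tmprss6, was higher, beside 16.1% and 11.4% of all genes. In limma 0 passed over all genes and 4 had an unadjusted p under 0.05, as 20.2% of all genes did. Stellate and mesenchymal markers, 7 of 9 with lower means, had a median of -2.29, and cholangiocyte markers, 8 of 8 lower, one of -3.33, and the part of those cells in the antagonist values was not tested. Fst, which encodes follistatin, had 48.6, 27.4 and 126 against 8.84, 2.31 and 0 normalized reads (-4.14, SE 0.943, limma adjusted p = 0.0981). Fstl1, a secreted follistatin-like protein, was at -1.61 (SE 0.524), and at -1.06 without vehicle library 3. Erfe, the erythroblast hormone erythroferrone that suppresses hepcidin by binding BMP6, had 2.37, 4.99 and 9.21 normalized counts under vehicle, against no read in any ginkgetin library, a level at least 1.58-fold lower, taken against a floor of 3 reads per library. It rests on 23 reads in all. Markers of erythroid cells found and tested, 6 in number, had higher means in 3 and lower in 3, at summed levels of 6672 to 8561 with vehicle and 9969 to 15161 with ginkgetin. The globin genes Hba-a2 and Hbb made up most of these sums. Hba-a2, Hbb and Alas2 lay at 0.57, 0.57 and 0.78, and Slc4a1, Klf1 and Ahsp at -0.36, -0.54 and -0.70. Grem1, a BMP antagonist of mesenchymal cells, had 8.30, 49.1 and 170 against 13.3, 2.31 and 1.24 (-3.19, SE 1.14), and -2.19 without vehicle library 3.

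The second input to hepcidin, IL-6 and STAT3, likewise gave no common direction. The list of 17 tested genes covers this input and plasma proteins of hepatocytes, acute phase proteins among them. Of these genes, 12 had higher and 5 lower means, with 9 higher under equal library totals. The median of 0.61 was 0.095 under that scaling, 0.22 with quantile scaling and 0.28 without vehicle library 3. Il6 itself, with 2, 0 and 16 reads under vehicle and none with ginkgetin, did not reach the level for testing. None passed in limma over all genes, and 3 had an unadjusted p under 0.05, as 20.2% of all genes did. Those without overlap numbered 4 higher and 2 lower, beside 11.4% and 16.1% of all genes. The higher ones were Il6st (1.18, SE 0.482), the signal-transducing receptor gp130, Saa4 (1.39, SE 0.746), Fgb (1.09, SE 0.811) and Itih3 (1.10, SE 0.785), which are secreted hepatocyte proteins. Without vehicle library 3 the last 3 lay at 0.56, 0.43 and 0.41, and Il6st was at 0.60 without ginkgetin library 2. Osmr, the oncostatin M receptor, was lower, with 81.8, 180 and 170 against 48.6, 35.9 and 22.3 normalized reads (-1.97, SE 0.459, limma adjusted p = 0.101). Lbp, the lipopolysaccharide-binding protein of the acute phase, had 4605, 10774 and 3549 against 1975, 2527 and 2303 (-1.31, SE 0.462), at -0.84 without vehicle library 2. Crp, an acute phase protein, had the largest log2 difference of the list, 2.345 (SE 1.12), and 1.05 without vehicle library 3. It overlapped between groups, at 39488, 20426 and 1938 against 30640, 85266 and 78532 normalized reads. Hepatocyte markers had higher means in 13 of 13 genes, at a median of 1.18, and their part in the values of this list was not tested. Socs3 and Stat3, named after their values were seen, were at -0.14 (SE 0.614) and -0.097 (SE 0.328), and Socs3 was at 0.16 with quantile scaling. The 6 tested transcription factors of hepatocytes that act at the Hamp promoter or on its inputs had higher means (median 1.04), though only 5 did with equal library totals. Their median was 0.52 under that scaling, 0.56 with quantile scaling and 0.49 without vehicle library 3. Hnf4a (1.31, SE 0.671) and Creb3l3 (1.13, SE 0.668) lay at 0.51 and 0.35 without vehicle library 3.

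Genes of iron uptake and of iron storage and export went in both directions. Of 12 uptake genes, Tfrc and Tfr2 included, 8 had higher means (3 with equal library totals, 5 with quantile scaling). The median was 0.43 (-0.084 without vehicle library 3). Without overlap 2 were higher and 2 lower, beside 11.4% and 16.1% of all genes. In limma 0 passed, with 2 at an unadjusted p under 0.05, as 20.2% of all genes were. Slc39a8, a metal transporter that carries zinc, manganese and iron, had 674, 326 and 538 normalized counts under vehicle, against 1173, 1217 and 1167 with ginkgetin. The ginkgetin libraries were close together and above all vehicle libraries (1.27 on the log2 scale, SE 0.293, adjusted p = 0.101 in limma). The value ran from 0.98 to 1.5 with 1 library left out. Scara5, a receptor for ferritin found on mesenchymal cells, had 104, 229 and 268 against 46.4, 30.1 and 3.71 (-3.29, SE 0.842), and Slc48a1, a haem transporter of macrophages, was at -1.02 (SE 0.467) and at -0.41 without vehicle library 3. Of 9 storage and export genes, Slc40a1 included, 5 had higher and 4 lower means, from -1.43 for Hmox1 and -1.37 for Heph, a copper-dependent ferroxidase, to 0.68 for Blvrb, a biliverdin reductase. In each of the 9 the groups overlapped, 0 had an unadjusted p under 0.05 in limma, and the median was 0.0065. Hmox1, the haem oxygenase that frees iron from haem, had 483, 1035 and 13017 against 703, 797 and 590, so that its log2 fold change of -1.43 (SE 1.03) was -0.032 without vehicle library 3.

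Among 8 iron-sensing genes, 4 of which belong to the 10 and 1 of which is hemojuvelin, all had higher means, at a median of 1.10 (0.54 without vehicle library 3), but Hfe and Fbxl5 had lower ones with equal library totals. The groups of 6 did not overlap, beside 27.4% of all genes in either direction, 0 passed in limma, and 2 had an unadjusted p under 0.05, beside 20.2%. Hepatocyte markers had higher means in 13 of 13 genes, at a median of 1.18, and their part in these values was not tested beyond the relative levels given for the 10 genes and hemojuvelin. Ireb2 and Aco1 encode the iron regulatory proteins that bind iron-responsive elements in mRNAs such as that of Tfrc. Ireb2 had 325, 280 and 228 normalized counts under vehicle, against 406, 1036 and 579 with ginkgetin (1.18, SE 0.349, limma adjusted p = 0.139), and 0.81 without ginkgetin library 2. Aco1 had 1510, 1144 and 1093 against 1559, 2249 and 2055 (0.64, SE 0.280), and 0.12 with equal library totals. That scaling lowered the median of all genes by 0.51, to -0.53. Fbxl5, which marks iron regulatory protein 2 for degradation when iron is present, was at 0.064 (SE 0.241), and -0.069 with quantile scaling.

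By the other tools, edgeR called 0 genes in each of these lists. DESeq2 called 3 ligands, 3 antagonists or suppressors, 2 genes each of the IL-6 input, iron uptake and iron sensing, and 1 each of BMP targets and of storage and export, beside 9.85% of all genes.

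**Figure D4:**
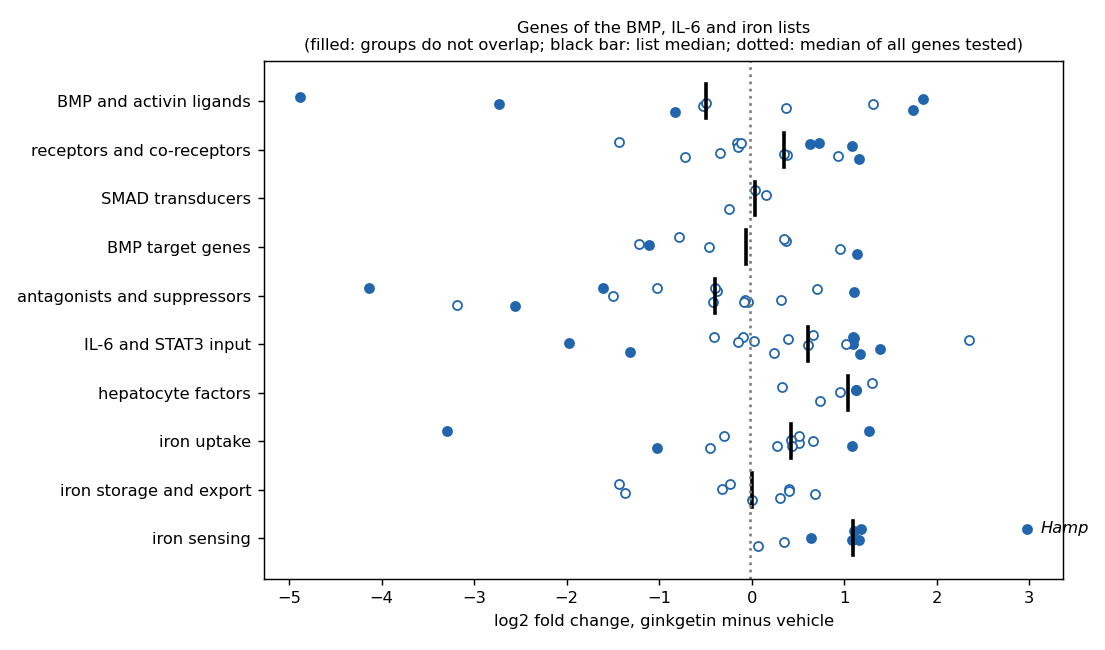
Log2 fold change of each tested gene in 10 lists of BMP, IL-6 and iron genes, filled where the groups do not overlap, with the list median as a black bar and the median of all tested genes as a dotted line. Hamp, at 2.98, is to the right of the other iron-sensing genes, and the BMP targets lie on either side of 0.

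The genes whose levels followed Hamp most closely over the 6 libraries were Lgals8, Epha2, Malsu1, Sco1 and Card6. Their Pearson r with Hamp on the log2 scale was 0.979, 0.978, 0.978, 0.975 and 0.975, the 5 highest among 6854 genes with a RefSeq symbol and a mean above the median. Hamp itself separates the groups, so genes that resemble it do too, and these r values are a description over 6 libraries. Lgals8, a galectin, had 364, 341 and 285 normalized counts under vehicle, against 614, 674 and 565 with ginkgetin, a ratio of means of 1.87. Epha2, an ephrin receptor, had 342, 345 and 235 against 598, 595 and 480. The log2 differences of these 5 genes, from 0.47 for Card6 to 0.91 for Lgals8, were smaller than that of Hamp.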

How the data were processed

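RNA of 6 rat liver samples was read from a single table of 16209 genes. Total RNA went into a SMARTER mRNA library kit, per the labels' protocols, and the submitters' processing notes name the build mRatBN7.2. The sources used here give no aligner, counting tool, annotation or strand setting, so reads of overlapping or antisense genes are not separable. The deposited values are a signal: normalized read counts, with no normalization named in the table. Dividing by the lowest non-zero value of a library gave whole reads for 99.67% of its values (tolerance 0.02), and the rest were rounded. Names turned into dates (23) are not named.

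Ginkgetin columns carry the sample's name and number. The remaining 3, headed TAA, a word the labels lack, were assigned to vehicle as the only other group, and keep the numbers of their headers. Nothing in the labels says that samples are separate animals, so p-values measure only the spread among these samples. All library pairs differed beyond sampling noise (chi-square per degree of freedom at least 49.9).

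Genes reaching 1 in at least 3 libraries (14639) were tested on log2(value + 1) with limma 3.58.1 (R 4.3.3), using trended, robust variance moderation and Benjamini-Hochberg adjustment at 0.05. This scale understates changes of low genes. The procedure was tested on simulated data. Alternatives were edgeR 4.0.16 and DESeq2 1.42.0 on whole reads, other pseudocounts, filters and scalings, and left-out libraries. For a group without reads the floor was 3 reads per library. Marker means average log2(value + 1).

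The 10 genes and all lists were chosen with earlier results of these data known. Named genes were the 10, all list genes without overlap between groups, up to 4 others per list with the smallest p, and the 5 with the highest r with Hamp. Smad9, Sostdc1, Fth1, Pcbp1 and 4 marker genes were not analysed here. RefSeq tables of another assembly, GRCr8, gave names (14544 row names matched as symbols, 739 as synonyms) and promoter sequences.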

Additional observations from a re-analysis of the deposited data

How the results depend on the processing

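Over 15 alternative settings, Hamp kept its higher mean, at 2.46 with equal library totals, 2.52 with quantile scaling and 2.69 to 3.41 with 1 library left out. Its difference relative to Id1, to Smad6, to their mean and to hepatocyte markers kept its sign in all 15, at 2.75 relative to Smad6 with quantile scaling. Relative to endothelial markers Bmp2 ran from -0.33 to 0.14 with 1 library left out. The 10 genes held 3 without overlap with all libraries and 4 without vehicle library 3, a setting chosen after seeing the data.

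Over all genes limma called 2. It called 0 with a pseudocount of 10, 1 with quantile scaling, 94 with equal library totals and 0 to 696 with 1 library left out. On whole reads edgeR called 0 and DESeq2 1380. With the replicate number as a block limma called 0. Same-numbered libraries had correlations of -0.16, 0.029 and -0.21 in their deviations from group means. With 3 libraries per group, and vehicle numbers taken from column headers, these values cannot decide whether the numbers pair the samples. Among the 10 genes, those that changed sign were Bmp2 (-0.14) and Hfe (-0.17) with equal library totals, and Slc40a1 at 0.058 with quantile scaling and from -0.68 to 0.41 with 1 library left out.

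With equal library totals, which lower the median of all genes by 0.51, the list medians were -1.01 for ligands, -0.17 for receptors, -0.48 for SMAD transducers, -0.57 for BMP targets, -0.90 for antagonists, -0.092 for iron uptake, -0.51 for storage and export and 0.58 for iron sensing. With quantile scaling they were -0.11 for ligands, 0.040 for BMP targets, -0.056 for iron uptake, -0.19 for storage and export and 0.65 for iron sensing. Storage and export also gave -0.11 with a filter of 10 in 3 libraries, -0.030 with edgeR and -0.027 with DESeq2, which gave 0.19 and 0.20 for iron uptake. Leaving out single libraries moved the medians between -0.57 and -0.033 for ligands, 0.047 to 0.66 for receptors, -0.22 to 0.19 for SMAD transducers, -0.23 to 0.15 for BMP targets, -0.50 to -0.039 for antagonists, 0.49 to 1.31 for hepatocyte factors, -0.084 to 0.65 for iron uptake, -0.12 to 0.12 for storage and export and 0.54 to 1.38 for iron sensing. The cause of these moves was not tested. Depth limits Bmp6, Erfe and Bmp10, with few reads per library.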
